A study of Mus musculus with 2 samples.

Results

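The genes of cholesterol synthesis, uptake and efflux were followed through 2 libraries of mouse bone marrow RNA. The set holds 29 named genes of the 21461 nuclear protein-coding genes among 43346 mouse gene IDs in the deposited tables, and all 29 were found by gene ID. The members were chosen by function: 18 enzymes of synthesis, 5 genes of the sterol sensing system around the SREBP transcription factors, 5 genes of the LXR receptors and cholesterol export, and 1 esterifying enzyme. None of the 29 is a lipoprotein receptor, so uptake was read from a separate list of receptors and adaptors.

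Both libraries came from primary cells that the labels call megakaryocytes, the marrow cells that shed platelets, taken from adult male C57BL/6J mice of 5 to 6 weeks. Total RNA, 100 ng for each library, was sequenced after removal of ribosomal RNA, with fragments of 221 to 1000 nucleotides in library 1 and 200 to 1000 in library 2. The labels number them as biological replicates 1 and 2 of a single group and give 1 donor identifier for the pair. Whether they came from separate mice is not clear, so differences between them may be technical. There was no contrast between conditions. The results are therefore levels of the genes within each library and the difference between the libraries.

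The expected counts summed to 42703213 in library 1 and 50532821 in library 2. Levels are given as TPM (transcripts scaled to a fixed total), which is corrected for length and so can be compared between genes. Nuclear protein-coding genes held 24% and 26.8% of all TPM. The other rows, noncoding genes among them, held the rest, which was not broken down by kind. The label was checked against marker genes, and the platelet genes were near absent. Of 11 megakaryocyte and platelet markers, only Itga2b (3.26 and 4.89 TPM in libraries 1 and 2) reached 1 TPM in both. The next highest, Tubb1, stood at 0.14 and 0.07 TPM. Protein-coding transcripts of Itga2b alone held 1.3 and 1.08 TPM. Gp5 and Gp6 had 0 counts in each library, a limit for Gp5 of 0.0152 and 0.0134 TPM and for Gp6 of 0.0322 and 0.0287. All 8 neutrophil markers, led by S100a8 (7598 TPM on average) and S100a9 (3949 TPM), and all 5 monocyte markers, led by Lyz2 (7000.3 TPM) and Ly6c2 (835 TPM), were at 10 TPM or more in both. The samples are called the libraries labelled megakaryocyte for this reason. In bulk RNA, fewer cells of a type and less RNA per cell cannot be told apart.

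Cells make cholesterol from acetyl-CoA by way of mevalonate, farnesyl diphosphate, squalene and lanosterol. When sterols in the endoplasmic reticulum are low, Scap carries the SREBP precursors to the Golgi, where they are cleaved to active factors that switch on the enzymes of synthesis. Insig proteins hold Scap back when sterols are plentiful. Excess cholesterol is stored as ester or exported by ABC transporters to apolipoproteins, and oxysterols turn on export through the LXR receptors. Phagocytes of the marrow meet large amounts of cholesterol in the membranes they engulf.

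Apoe, an export gene, and Soat1, the storage enzyme, stood highest in the set, and the enzymes of synthesis formed a middle band with a few low members. Over the 29 members the median level was 5.14 TPM (4.24 in library 1 and 5.44 in library 2), against 0.28 TPM over all nuclear protein-coding genes. In both libraries 24 members (82.8%) reached 1 TPM, as did 42.4% of nuclear protein-coding genes. At 10 TPM or more in both stood 7 members (24.1%), against 16.9% of those genes. Apoe and Soat1 alone held 54.7% of the summed TPM of the members in library 1 and 55.1% in library 2. The order below them was less sharp, since the ranges of the 2 libraries overlapped for 21 of the 28 pairs of neighbours in the order of mean TPM.

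**Figure D1:**
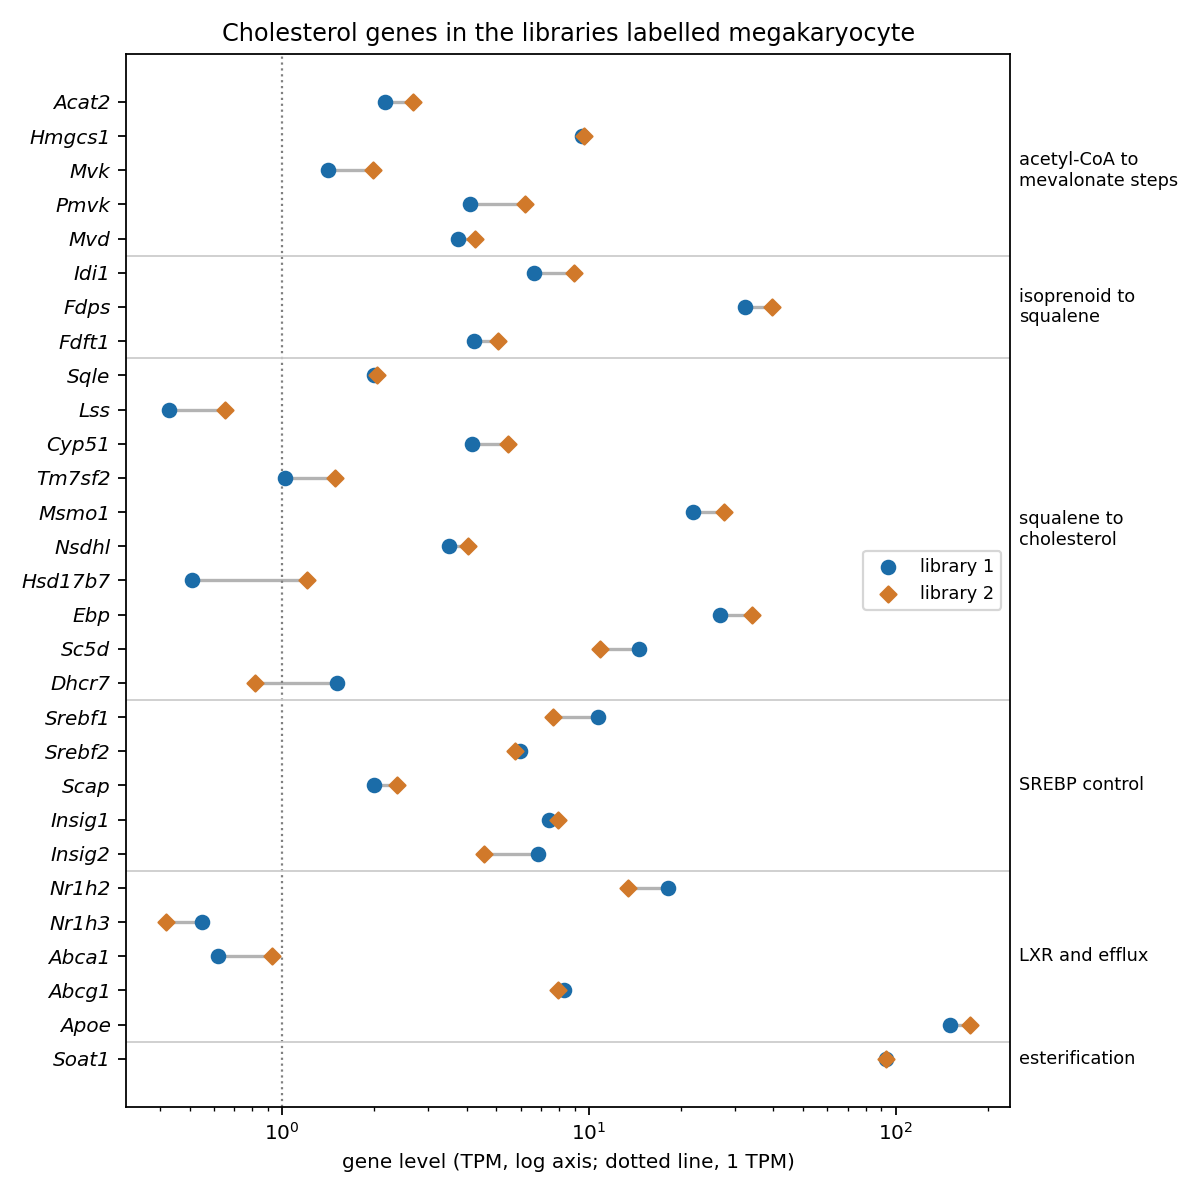
Gene level in TPM (log axis) of the 29 cholesterol genes, grouped by role, in library 1 (circles) and library 2 (diamonds); a grey line joins the 2 libraries. Apoe and Soat1 lie to the right of all others, and Nr1h3, Lss, Abca1, Hsd17b7 and Dhcr7 fall below 1 TPM in at least 1 library.

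The 5 early enzymes, which lead from acetyl-CoA to mevalonate and its activated forms, were all above 1 TPM in both libraries. Hmgcs1, the cytosolic HMG-CoA synthase, was the highest of them at 9.52 TPM in library 1 and 9.65 TPM in library 2. Its 2871 and 3297 counts lay close together after scaling for depth. Acat2, the thiolase that joins acetyl-CoA units, stood at 2.16 and 2.68 TPM. The mevalonate kinases followed, with Mvk at 1.41 and 1.98 TPM and Pmvk, the phosphomevalonate kinase, at 4.10 and 6.18 TPM. Mvd, the decarboxylase that yields isopentenyl diphosphate, stood at 3.75 and 4.25 TPM. Each of the 5 had a higher TPM in library 2, with the smallest margin for Hmgcs1, whose scaled counts ran the other way. Nuclear protein-coding genes as a whole also held a larger share of TPM in library 2, as given above. The counts of Acat2, Idi1 and Fdps were not whole in either library and those of Fdft1 and Tm7sf2 not in library 2, so some reads of these 5 genes were divided between rows by estimation.

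The 3 enzymes from isopentenyl diphosphate to squalene differed widely in level. Fdps, the farnesyl diphosphate synthase at the branch between sterols and protein prenylation, was the highest enzyme of synthesis at 32.27 TPM in library 1 and 39.67 TPM in library 2. Idi1, the isomerase before it, stood at 6.61 and 8.98 TPM. Fdft1, the squalene synthase and the first enzyme committed to sterols, stood at 4.24 and 5.08 TPM, so that its range lay far below that of Fdps. In the newer annotation 26.7% of the exon bases of Fdps are shared with Gm43738 on the same strand, a gene with no row in the deposited tables. Idi1 shares 9.22% with Gm48574 on the opposite strand, also without a row, and Fdft1 shares 18.3% with the protease gene Ctsb on the opposite strand. Reads of Fdps and Gm43738 cannot be told apart in the shared bases, whatever the strand setting, so the level of Fdps is uncertain there. Whether counting used strand was not stated, so the levels of Idi1 and Fdft1 are uncertain to that extent. The same holds for Hmgcs1, which shares 12.1% with the antisense gene Gm48342, again without a row.

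The 10 enzymes from squalene to cholesterol ranged from 0.54 TPM for Lss to 30.4 TPM for Ebp on average, and 7 of them reached 1 TPM in both libraries. Sqle, the squalene epoxidase, stood at 2.00 and 2.04 TPM, from 453 and 605 counts. Lss, the lanosterol synthase that closes the sterol rings, was the lowest enzyme of the set by TPM, at 0.43 and 0.65. This rank is uncertain, since the deposited posterior mean TPM of Lss was 0.73 and 0.90. By that measure Hsd17b7 was lower in library 1, at 0.61. Cyp51, which removes a methyl group from lanosterol, stood at 4.15 and 5.44 TPM. Tm7sf2, a sterol reductase that acts after it, stood at 1.02 and 1.49 TPM from only 117 and 143 counts. It shares 12.1% of its exon bases with Vps51 on the same strand, so this low level is uncertain.

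The complex that removes the remaining methyl groups was uneven. Msmo1, its oxidase, stood at 21.87 TPM in library 1 and 27.65 TPM in library 2. Nsdhl, its dehydrogenase, stood at 3.51 and 4.04 TPM, and Hsd17b7, its ketoreductase, at 0.51 and 1.21 TPM. Levels of the 3 partners thus lay far apart in both libraries, with Msmo1 highest and Hsd17b7 lowest in each. Of the last enzymes, Ebp, the sterol isomerase, was at 26.71 and 34.17 TPM. Sc5d, the desaturase, was at 14.58 and 10.89 TPM, and Dhcr7, the reductase of the final step, at 1.51 and 0.82 TPM. Sc5d and Dhcr7 were the only enzymes of synthesis with a higher TPM in library 1. The other 16 of 18 had a higher TPM in library 2, though 3 of these, Hmgcs1, Idi1 and Lss, had lower scaled counts there. Nuclear protein-coding genes as a whole also held more of the TPM in library 2 (26.8%) than in library 1 (24%). The share of all genes with a higher TPM in library 2 was not counted, so whether this direction is particular to the enzymes was not tested.

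All 5 genes of SREBP control were above 1 TPM in both libraries, and none reached 10 TPM in both. Srebf1, whose products favour fatty acid genes, stood at 10.73 TPM in library 1 and 7.67 TPM in library 2. Srebf2, whose product favours cholesterol genes, stood at 5.96 and 5.75 TPM. Scap, the escort protein, stood at 2.00 and 2.38 TPM, with 13.2% of its exon bases shared with 5830462I19Rik on the opposite strand. The retention proteins followed, with Insig1, itself a target of SREBP, at 7.44 and 7.97 TPM and Insig2 at 6.85 and 4.55 TPM. In TPM the libraries differed least, relative to level, for Srebf2 and Insig1; in scaled counts they differed least for Srebf1 and Insig1, with log2 ratios of library 2 over library 1 of -0.03 and 0.04.

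Srebf2 also hosts a microRNA. The hairpin of mmu-miR-33-5p, known to repress Abca1, lies in an intron of Srebf2 (GRCm38.p6, chr15:82198122-82198190, plus strand). Its mature sequence from RefSeq at chr15:82198127-82198147 is shown, with the seed (bases 2 to 8) in capitals, because it links the sterol sensing gene to the exporter described next:
mmu-miR-33-5p: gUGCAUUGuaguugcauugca
The row of this microRNA had 0 counts and an effective length of 0 bases in both libraries, so its level was not measured here.

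Promoter windows were read for elements through which SREBP is known to act. The RefSeq promoter table (GRCm38.p6, 300 bases from 250 before to 50 after a gene's start) held 25 of the 29 members and not Fdps, Fdft1, Sqle and Abcg1. These windows were searched on both strands for a sterol regulatory element (TCACNCCAC, with N any base), the CCAAT box bound by NF-Y, a partner of SREBP, and the E-box CACGTG. Hmgcs1 was the only one of the 25 with the sterol element, which 1.44% of all genes in the table hold. The CCAAT box was found in 19 of the 25 (76%), against 41.1% of all genes. The E-box was found in 6 of the 25 (24%), namely Hsd17b7, Sc5d, Dhcr7, Scap, Insig1 and Abca1, against 8.09% of all genes. The promoter table held 32851 windows for 27025 genes, and Dhcr7, Srebf1, Insig2 and Apoe had 3 each. A gene counted if any of its windows matched, and the shares were not adjusted for the number of windows. The 3 motifs do not overlap each other in the stretches shown. The 3 stretches upstream of the annotated gene body are shown here, with every match of the 3 motifs in capitals: Hmgcs1 (chr13:119690101-119690350, plus strand) for its sterol element, Insig1 (chr5:28071162-28071362, plus strand) as the SREBP target among the regulators, and Hsd17b7 (chr1:169969242-169969455, minus strand) as the member that differed most between the libraries:
Hmgcs1: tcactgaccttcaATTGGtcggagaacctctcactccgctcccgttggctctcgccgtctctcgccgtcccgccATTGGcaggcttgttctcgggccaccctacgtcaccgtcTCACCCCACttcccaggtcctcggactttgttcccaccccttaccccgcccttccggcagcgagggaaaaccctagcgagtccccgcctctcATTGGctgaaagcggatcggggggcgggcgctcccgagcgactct
Insig1: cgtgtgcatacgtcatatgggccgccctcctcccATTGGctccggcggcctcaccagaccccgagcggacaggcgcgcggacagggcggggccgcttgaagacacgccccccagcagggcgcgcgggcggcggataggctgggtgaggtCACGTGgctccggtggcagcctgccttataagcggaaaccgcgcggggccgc
Hsd17b7: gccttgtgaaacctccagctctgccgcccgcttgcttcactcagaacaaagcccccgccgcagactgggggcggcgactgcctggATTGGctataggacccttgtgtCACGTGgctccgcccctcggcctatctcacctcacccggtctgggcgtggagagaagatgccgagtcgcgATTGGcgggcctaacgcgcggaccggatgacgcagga
The Hmgcs1 stretch holds 1 sterol element and 3 CCAAT boxes, all of the latter on the opposite strand and so written ATTGG. The Insig1 stretch holds 1 CCAAT box and 1 E-box, and the Hsd17b7 stretch 2 CCAAT boxes and 1 E-box. A match is a description of these letters and not a bound site.

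By mean TPM the LXR and efflux genes held both the highest and the lowest member of the set, Apoe and Nr1h3. In library 1 alone, Lss (0.43 TPM) and Hsd17b7 (0.51 TPM) lay below Nr1h3 (0.55 TPM). Apoe, the apolipoprotein that accepts exported cholesterol and that macrophages secrete (mm10, chromosome 7, 19696109 to 19699188), stood at 150.0 TPM in library 1 and 175 TPM in library 2 (162.5 ± 17.7, SD, n = 2), from 10429 and 13551 counts. It lay above 98.9% of nuclear protein-coding genes. Of 8 tissue macrophage markers, measured as another source of such genes, 2 reached 1 TPM in both libraries, Adgre1 (26.6 TPM on average) and Axl (1.75 TPM), and the other 6 were below 1 TPM in library 1. That list summed to 28.49 and 32.94 TPM in the 2 libraries, and its part in the level of Apoe was not tested.

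Of the ABC transporters, Abcg1, which passes cholesterol to HDL, far exceeded Abca1, which loads lipid-poor apolipoproteins. Abcg1 stood at 8.30 and 7.92 TPM, and Abca1 at 0.62 and 0.93 TPM. The ratio of Abca1 over Abcg1 was 0.0747 in library 1 and 0.117 in library 2. The low TPM of Abca1 came from 567 and 688 counts on a long transcript and so does not rest on few reads. Of the LXR receptors, Nr1h2, the broadly expressed LXR beta, stood at 18.07 and 13.46 TPM. Nr1h3, the LXR alpha of liver and macrophages, stood at 0.55 and 0.42 TPM from 25 counts (95% exact Poisson interval 16.2 to 36.9, counting error only) and 37 counts (26.1 to 51). Nr1h2 was 32.9 times as high as Nr1h3 in library 1 and 32 times in library 2.

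Soat1, which esterifies cholesterol for storage in droplets (mm10, chromosome 1, 156424525 to 156474331), was the second highest member and the most even between the libraries in TPM. It stood at 92.85 TPM in library 1 and 92.84 TPM in library 2, from 18164 and 20821 counts, above 98.2% of nuclear protein-coding genes. Its libraries did not overlap with those of Apoe above it or of Fdps below it.

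The level of a gene sums over its transcripts, and for several members much of it was assigned to transcripts with no coding sequence. Protein-coding transcripts held at least 90% of the TPM in both libraries for 14 members and less than 50% in both for 5, namely Ebp, Srebf1, Insig2, Nr1h3 and Soat1. For Soat1, the transcript Soat1-203, annotated as a retained intron, held 60.8% of the TPM in library 1 and 55.8% in library 2. The coding share of Soat1 was 35.6% and 40.6%, which is 33.04 and 37.65 TPM. Counted over coding transcripts only, Apoe remained first at 113.91 and 132.29 TPM, and the range of Soat1 lay within that of Fdps (32.27 and 39.67 TPM).

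The leading transcript was coding in both libraries for 20 members and noncoding in both for 5, Ebp, Insig2, Nr1h2, Nr1h3 and Soat1. Ebp-202, a retained intron form, held 58.2% and 69.8% of the TPM of Ebp, whose coding share was 34.2% and 25.9%. The coding level of this isomerase was therefore 9.13 and 8.86 TPM. Insig2-206, again a retained intron form, held 77.8% and 56.2% of Insig2. For Nr1h3 the noncoding Nr1h3-207 held 79.8% and 53.5%, at the low depth given above. For the other 4 members, Lss, Tm7sf2, Msmo1 and Srebf1, the leading transcript was coding in 1 library and noncoding in the other.

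Assignment between similar transcripts was not stable for every gene. Sc5d was wholly coding in both libraries, but Sc5d-202 held 75.4% in library 1 and 17.8% in library 2, with Sc5d-201 taking the rest. The coding share of Tm7sf2 was 7.84% in library 1 and 94% in library 2, at 117 and 143 counts. Msmo1 was split between the coding Msmo1-201 (45.2% and 38%) and the noncoding Msmo1-204 (43.1% and 56.6%). Apoe was alike in both, with 75.9% and 75.6% coding. Transcript types were taken from the newer annotation by transcript ID.

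**Figure D2:**
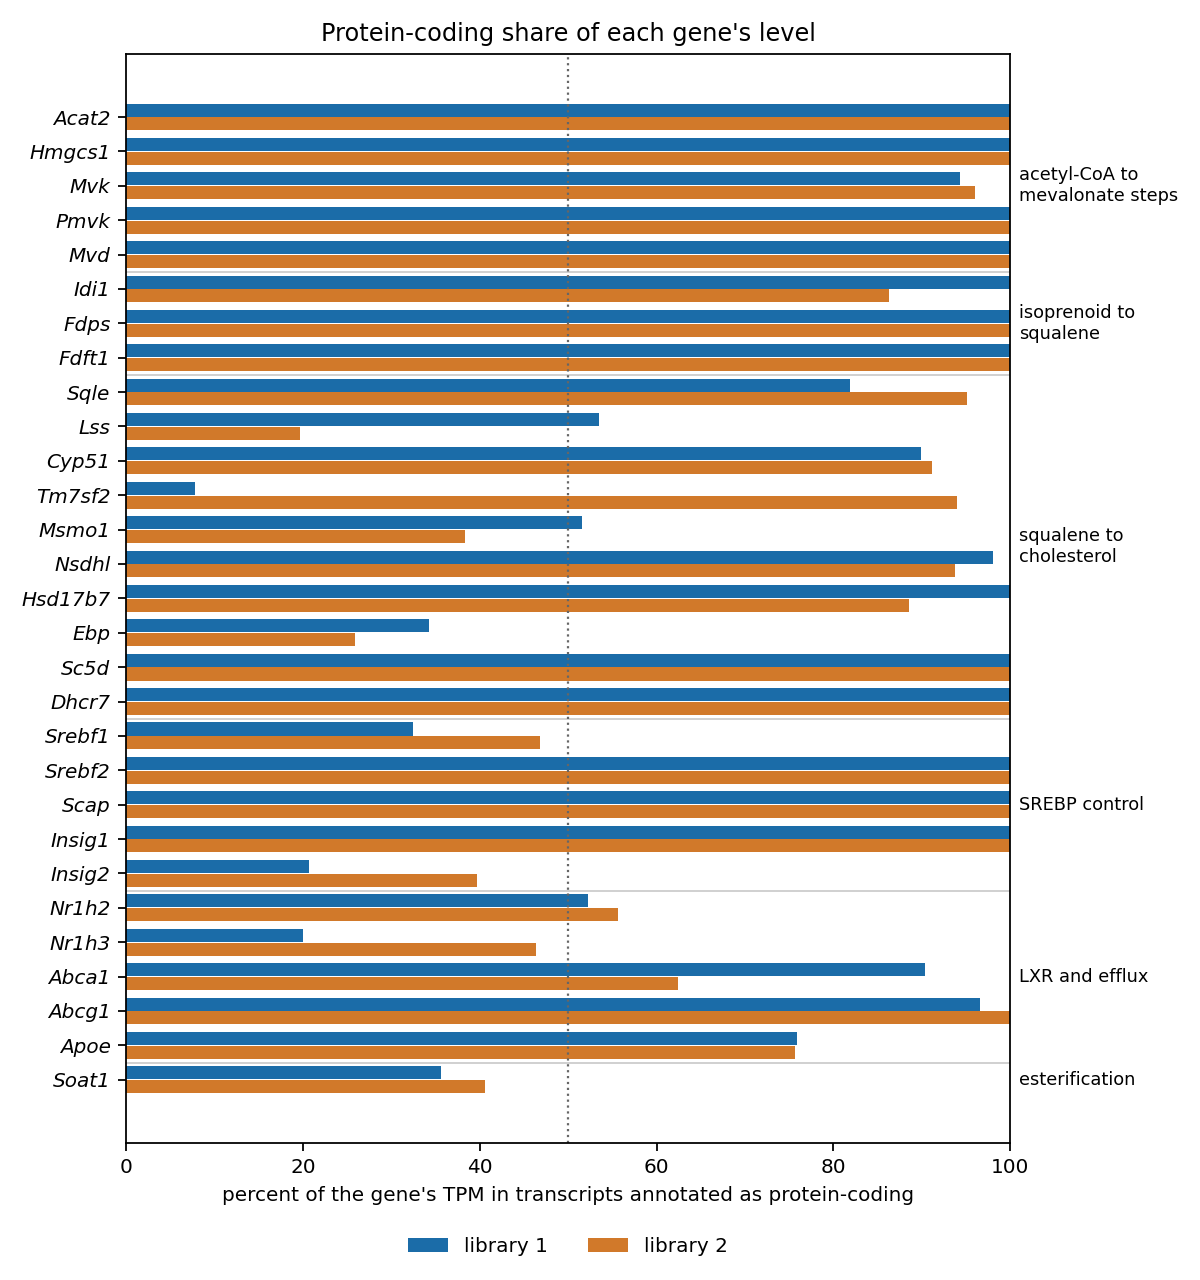
Percent of each gene's TPM (0 to 100) assigned to transcripts annotated as protein-coding, for the 29 genes in library 1 (blue) and library 2 (orange); the dotted line marks 50 percent. Most enzymes of early synthesis are near 100 percent in both libraries, Ebp, Srebf1, Insig2, Nr1h3 and Soat1 stay below 50 percent in both, and Tm7sf2 goes from 7.84 to 94 percent.

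The coding share turned the order of 1 pair of related genes. At the gene level Srebf2 was below Srebf1, with ratios of 0.555 in library 1 and 0.75 in library 2. Over coding transcripts Srebf2 was above Srebf1, with ratios of 1.72 and 1.60, since the coding share of Srebf1 was 32.4% and 46.8% and that of Srebf2 100%. Insig1 exceeded Insig2 by 1.09 and 1.75 times at the gene level and by 5.24 and 4.40 times over coding transcripts. The deposited posterior mean TPM of Insig1 was below that of Insig2 in library 1, at 7.36 against 7.82. In library 2 it was above, at 7.9 against 5.55. Nr1h2 stayed above Nr1h3 over coding transcripts, at 85.7 and 39.4 times. Abca1 stayed below Abcg1, at 0.0698 and 0.0732 times. The order within the SREBP pair thus depends on which transcripts are counted, and that of the other 3 pairs does not.

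The libraries were compared gene by gene with a two-sided exact binomial test on counts scaled for depth, with Benjamini-Hochberg adjustment over 14283 genes and a threshold of 0.05. This test holds counting error only and compares these 2 libraries. It called 65.1% of tested genes and 17 of the 29 members (58.6%). Of the members, 11 (37.9%) were higher in library 2, against 32.9% of tested genes, and 6 (20.7%) were higher in library 1, against 32.2%. The members are thus near the background of the whole table. In scaled counts 2 members (6.9%) were at least 1.5-fold apart, against 23.7% of tested genes and 9.99% of those whose mean count was at least 100. Both also passed the binomial test, and 21.4% of tested genes met both criteria. In TPM 6 members (20.7%) were at least 1.5-fold apart, Hsd17b7, Dhcr7, Pmvk, Lss, Insig2 and Abca1, against 27.8% of tested genes. Folds between the libraries are given in scaled counts from here on.

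Those 2 members are enzymes of late synthesis and went in opposite directions. Hsd17b7 (mm10, chromosome 1, 169949535 to 169969241) had 216 counts in library 1 and 545 in library 2, a log2 ratio of library 2 over library 1 of 1.09 (95% exact binomial interval 0.86 to 1.33, adjusted p = 9.9e-22). Dhcr7 (chromosome 7, 143823145 to 143848410) had 357 and 220 counts, a log2 ratio of -0.94 (-1.19 to -0.69, exact binomial adjusted p = 9.8e-14). A ratio at least as large in size was seen in 13% of all tested genes for Hsd17b7 and in 15.1% for Dhcr7. The leading transcript was the coding Hsd17b7-201 in both libraries (96.0% and 88.8%) and the coding Dhcr7-202 in both (90.9% and 81.6%).

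The other 15 called members differed by less than 1.5-fold in scaled counts, and none of them passed edgeR's exact test when the libraries were assumed to vary with a coefficient of variation of 0.1, which called Hsd17b7 and Dhcr7 alone. Among the enzymes, 9 of 18 (50%) were called higher in library 2, against 32.9% of tested genes, and 2 (11.1%), Sc5d and Dhcr7, in library 1, against 32.2%. The difference between these shares was not tested. The ratio on the log2 scale was 0.39 for Mvk, 0.35 for Cyp51, 0.30 for Pmvk, 0.25 for Acat2, 0.23 for Ebp, 0.23 for Fdps, 0.20 for Fdft1 and 0.12 for Msmo1, and -0.21 for Sc5d. For Ebp and Msmo1 the TPM of coding transcripts was not higher in library 2. It was 9.13 and 8.86 TPM in libraries 1 and 2 for Ebp and 11.27 and 10.59 TPM for Msmo1. The other enzymes called higher in library 2 also had a higher coding TPM there. Outside synthesis, Scap (0.19) and Apoe (0.14) were higher in library 2. Nr1h2 (-0.39), Srebf2 (-0.11), Abcg1 (-0.09) and Soat1 (-0.04) were higher in library 1. The interval of Nr1h2, from -0.50 to -0.28, was the farthest from 0 of these 4, and the largest adjusted p among the 15 was 0.028 for Abcg1 (exact binomial test with Benjamini-Hochberg adjustment).

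The remaining 12 members did not pass. Their intervals still leave room for a difference, most of all for Nr1h3 (log2 ratio 0.32, -0.45 to 1.12) and Tm7sf2 (0.05, -0.31 to 0.41), the members with the fewest counts. The narrowest were those of Hmgcs1 (-0.04, -0.11 to 0.03), Insig1 (0.04, -0.05 to 0.13) and Idi1 (-0.02, -0.11 to 0.07). For 5 of these 12, Hmgcs1, Idi1, Lss, Insig2 and Nr1h3, TPM and scaled counts differed in opposite directions between the libraries. TPM divides by an effective length that follows the estimated transcript mix, which for Insig2 was 609 bases in library 1 and 1053 bases in library 2.

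Cell type markers differed between the libraries as well. The binomial test called 32.9% of all tested genes higher in library 2 and 32.2% in library 1. At high counts small differences also passed, such as a log2 ratio of -0.03 for S100a8. Of 6 erythroid markers 5 were called, all higher in library 1, with a summed level of 35.01 TPM in library 1 and 21.64 TPM in library 2; Hbb-bt (12.81 and 10.44 TPM) and Hbb-bs (13.60 and 8.51 TPM) were the highest, and as near-identical copies their split is uncertain. All 5 monocyte markers were called higher in library 2, with sums of 7315 and 9639 TPM. Of 8 neutrophil markers 7 were called higher in library 1 and 1 in library 2, with sums of 14340 and 13610 TPM. Of the tissue macrophage markers 2 were called higher in library 2 and 3 in library 1. Of 4 basophil and eosinophil markers, led by Mcpt8 (87.6 TPM on average) and Prg2 (70.1 TPM), 2 were called higher in library 2 and 1 in library 1. Of 4 proliferation genes, led by Top2a (182 TPM) and Mki67 (129.9 TPM), 3 were called higher in library 2 and 1 in library 1. The part of these markers in the differences of the cholesterol genes was not tested.

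**Figure D3:**
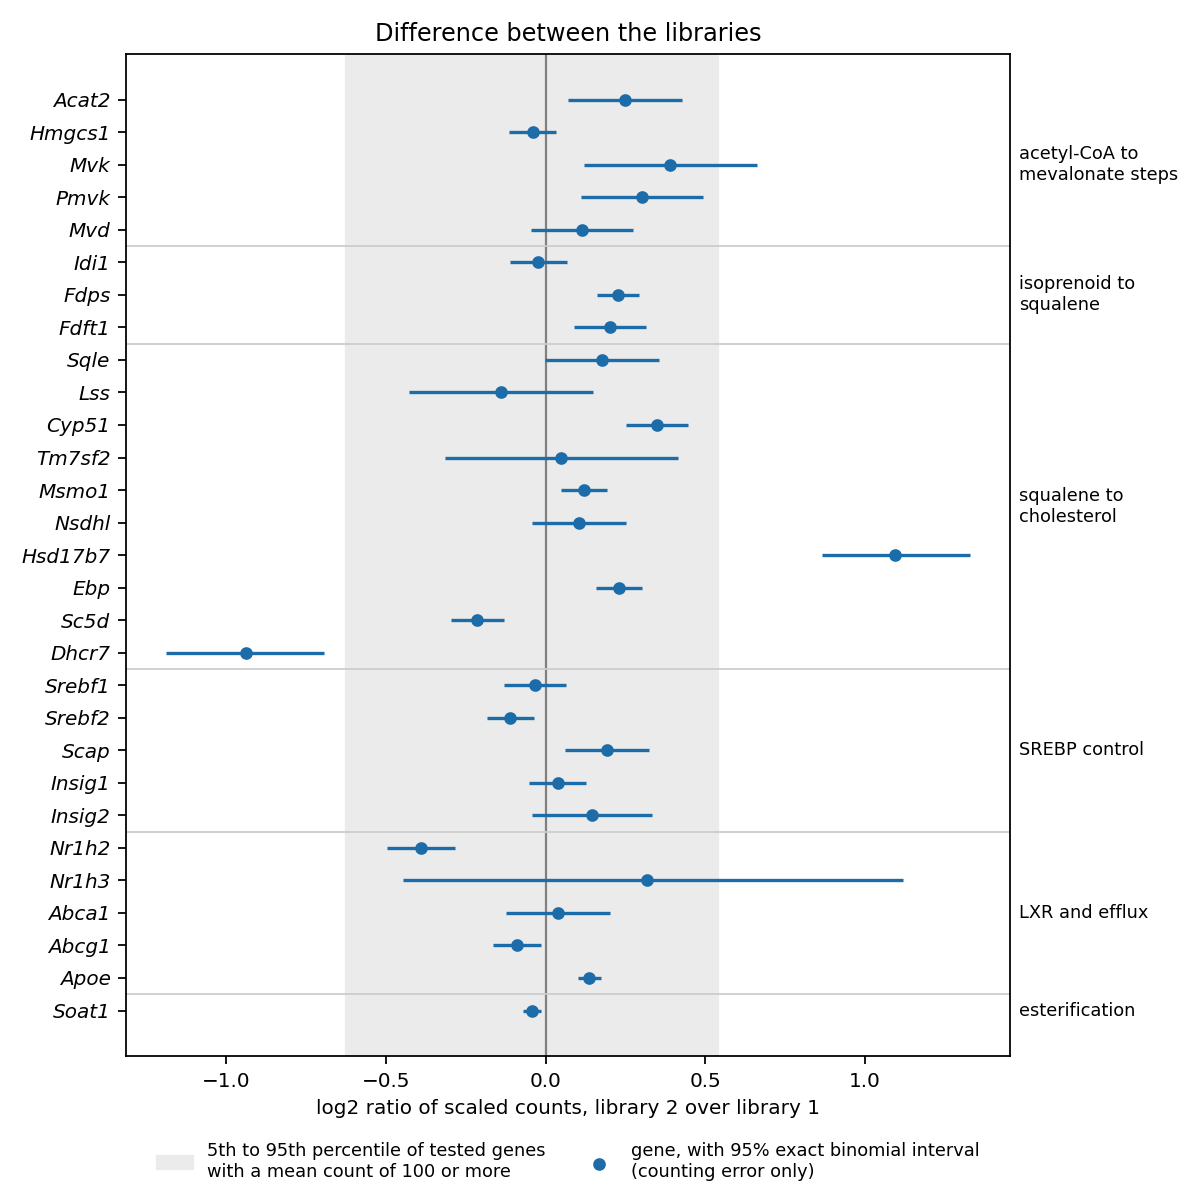
Log2 ratio of scaled counts, library 2 over library 1, for the 29 genes, with 95% exact binomial intervals that cover counting error only; the grey band spans the 5th to 95th percentile (-0.62 to 0.54) of the 10953 tested genes whose mean count was at least 100. Hsd17b7 lies to the right of the band and Dhcr7 to its left, and the points of the other 27 genes lie inside it.

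Uptake was read from 10 lipoprotein receptors and adaptors, of which 8 reached 1 TPM in both libraries. The highest were Lrpap1, the chaperone of LRP receptors, at 23.47 and 38.21 TPM, Scarb1, the HDL receptor, at 21.89 and 23.61 TPM, and Msr1, a macrophage scavenger receptor, at 20.12 and 22.03 TPM. No read of Vldlr was counted in either library, and 0 counts leave room for up to 0.0103 and 0.00912 TPM. Of the 9 tested, 2 were called higher in library 2 and 5 in library 1, against 32.9% and 32.2% of all tested genes, which is also the background for the lists that follow. Mylip, the LXR target that marks lipoprotein receptors for degradation, was the only called gene of the list also at least 1.5-fold apart in scaled counts, with 1315 and 994 counts (log2 ratio -0.64, exact binomial adjusted p = 2.5e-25). The list median was 3.505 TPM, below the 5.14 TPM of the 29 members.

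Genes of lysosomal release and intracellular sterol transport had a higher median, 9.98 TPM, and 8 of 9 reached 1 TPM in both libraries. Scp2, a sterol carrier, stood at 119.87 and 140.94 TPM, between Soat1 and Apoe in library 1 and in library 2. Npc2, which binds cholesterol in the lysosome, stood at 44.53 and 50.11 TPM. Lipa, the acid lipase that frees cholesterol from its esters there, stood at 16.87 and 19.30 TPM. All 9 were called, 6 higher in library 2 and 3 in library 1, by a test that called 65.1% of all tested genes. Gramd1c, a sterol transfer protein of low level (0.23 and 0.11 TPM), was also at least 1.5-fold apart, with 74 and 41 counts and a log2 ratio of -1.08 (exact binomial adjusted p = 0.00018).

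Among 12 further genes of efflux and of LXR partners and targets, 10 reached 1 TPM in both libraries and the median was 6.72 TPM. The highest were Ncor1, a corepressor of nuclear receptors, at 71.77 and 58.43 TPM, Apoc2, an apolipoprotein that activates lipoprotein lipase, at 19.67 and 26.81 TPM, and Lpl, that lipase, at 9.60 and 9.72 TPM. Coding transcripts held 55.7% and 65.5% of the TPM of Ncor1. Lpl was among the most even, with a log2 ratio of 0.003. The binomial test called 4 higher in library 2 and 6 in library 1, and 3 of these were also at least 1.5-fold apart, among them Apoc1 and Pltp. Apoc1, another apolipoprotein, had 22 and 98 counts (log2 ratio 1.89, exact binomial adjusted p = 1.5e-09), against 0.14 for Apoe. Pltp, the phospholipid transfer protein, had 138 and 79 counts (-1.04, exact binomial adjusted p = 6e-07).

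The machinery that cleaves SREBP and degrades its partners on a sterol signal was present throughout. All 13 of its genes reached 1 TPM in both libraries, with a median of 7.49 TPM. Vcp, the ATPase that draws ubiquitinated proteins from the membrane, led at 38.15 and 45.34 TPM. Erlin1, a membrane scaffold of that pathway, stood at 16.63 and 16.31 TPM. The test called 3 higher in library 2 and 4 in library 1, and none was 1.5-fold apart; their log2 ratios ran from -0.27 to 0.23.

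**Figure D4:**
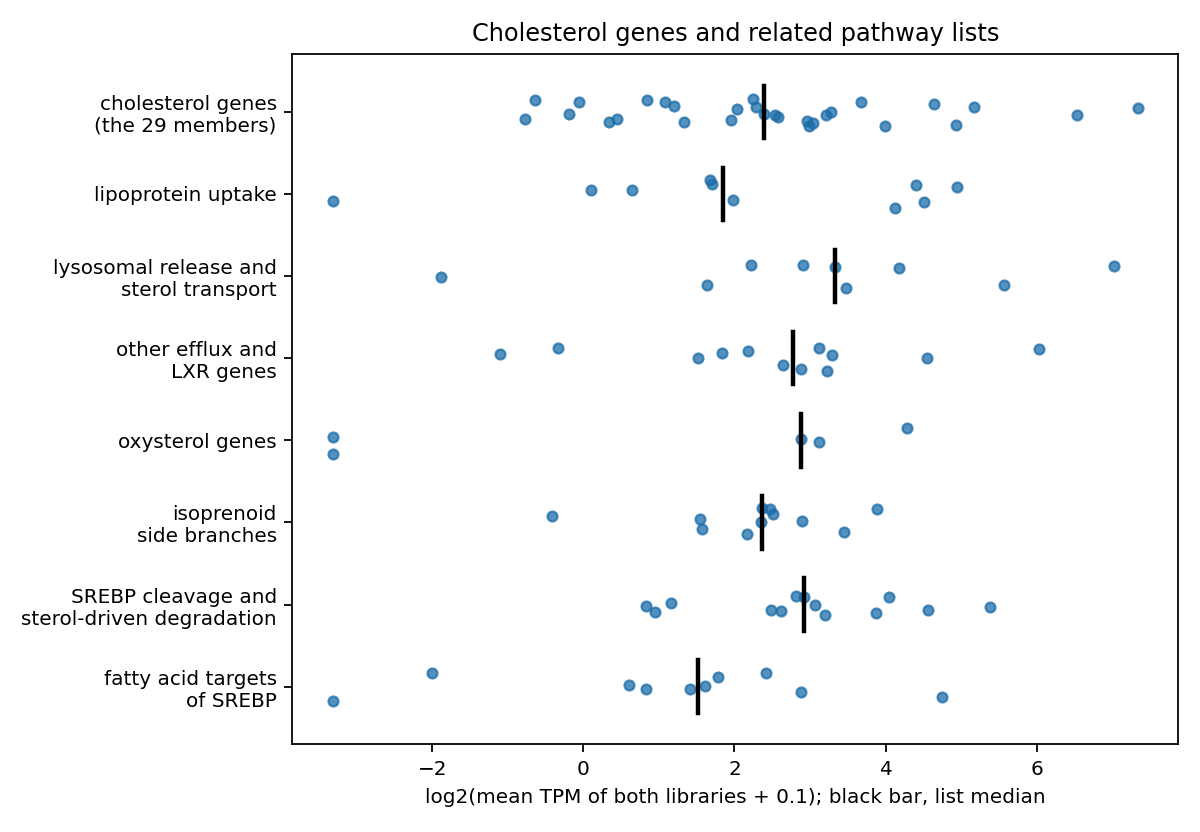
Each point is a gene, placed at log2 of its mean TPM over both libraries plus a pseudocount of 0.1; rows are the 29 cholesterol genes and the 7 related lists, and black bars are list medians. The lysosomal release and sterol transport list has the highest median (9.98 TPM) and the fatty acid targets the lowest (2.75 TPM), and the points at the far left are the genes at 0 TPM.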

How the data were processed

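Total RNA-seq was measured in 2 libraries of 1 group. The build was mm10 and the annotation GENCODE M4, per the labels in the deposited text files. Aligner and quantifier are not given in the sources used here, but the columns carry the names used by RSEM. The deposited expected counts are the authors' estimated counts per gene or transcript, not normalized. The deposited TPM values have a fixed sum over all rows of a table. The deposited percent per transcript (its share of the gene's TPM) gave transcript shares, and deposited effective lengths for limits at 0, set at 3 counts.

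Symbols, types and coordinates came from GENCODE M21, also mm10, by ID without version: 42462 of 43346 mouse gene IDs matched. Expected counts were rounded, 5 of the 29 members having counts that were not whole, and a mean count of at least 10 was required for the test. Library sizes were scaled with TMM (edgeR 4.0.16, R 4.3.3). The exact binomial test, the log2 ratios (prior count 0.5) and intervals used SciPy 1.17.1. The test was run on simulated counts that hold counting error only, which cannot show how it behaves when libraries vary more than that. Alternatives used DESeq2 1.42.0 size factors, protein-coding totals, other count minimums, edgeR's exact test at an assumed biological coefficient of variation of 0.1, posterior mean TPM and coding transcripts. Intervals and limits computed here cover counting error alone: without molecular identifiers, reads are not separate molecules.

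The members and lists were chosen with earlier results of these data known. Named were every member. Of each pathway list the rule named the 3 highest by mean TPM, any gene with 0 counts in both libraries, and any past both the test and 1.5-fold. Of each marker list it named the 2 highest and any with 0 counts in both. A few genes named by this rule are left unreported but stay in the counts and medians. Protein sequences were not analysed here.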

Additional observations from a re-analysis of the deposited data

How the results depend on the processing

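For the comparison of the libraries, DESeq2 size factors, protein-coding totals, no filter on low counts, a mean count of 100 or more and, chosen after seeing the data, protein-coding genes only each called the same 17 members in the same directions and left 2 members at least 1.5-fold apart. In TPM, also compared after seeing the data, 6 members were that far apart. At 100 or more, Nr1h3 was not tested. At an assumed coefficient of variation of 0.1, edgeR's exact test called 2 members, Hsd17b7 and Dhcr7, and the other 15 did not pass. It called 17.5% of tested genes. Leaving out a library cannot be done in that comparison. The median of all members ranged from 4.24 to 5.44 TPM without either library and was 20.1 TPM when TPM was rescaled to protein-coding genes; that of the synthesis members was 17.0 TPM so rescaled, since this divides by a smaller total. Raising the level asked for in both libraries to 5 or 10 TPM left 13 or 7 members. Over coding transcripts the mean ratio of Srebf2 over Srebf1 turned from 0.653 to 1.66, that of Insig1 over Insig2 rose from 1.42 to 4.82 and that of Nr1h2 over Nr1h3 from 32.5 to 62.5. With posterior mean TPM the last was 26.6. No paired analysis was possible because there is a single group. With 25 and 37 counts, Nr1h3 is limited by depth, and no replicate spread within a condition beyond these 2 libraries was measured.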

Other observations

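Branches that leave the cholesterol pathway at farnesyl diphosphate were present at levels like those of synthesis. Of 11 genes of protein prenylation, dolichol and ubiquinone, 10 reached 1 TPM in both libraries, with a median of 5.07 TPM against 4.33 TPM for the 18 enzymes of synthesis. Fnta, the shared subunit of the prenyltransferases, stood at 13.19 and 16.09 TPM, and Rabggtb, which prenylates Rab proteins, at 10.37 and 11.23 TPM. Pggt1b, the geranylgeranyl transferase subunit, stood at 6.69 and 8.01 TPM. Its only transcript, Pggt1b-201, is not typed as protein-coding in the newer annotation. The exact binomial test called 5 higher in library 2 and 1 in library 1, against 32.9% and 32.2% of all tested genes, the background for the next lists too. Rabggta, the partner of Rabggtb, was also at least 1.5-fold apart with 379 and 730 counts (log2 ratio 0.70).

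Fatty acid targets of SREBP had a median of 2.75 TPM, and 8 of 10 reached 1 TPM in both libraries. Acly, which makes cytosolic acetyl-CoA and so feeds both pathways, led at 26.06 and 27.51 TPM, followed by the desaturase Scd2 (7.19 and 7.40 TPM) and the acetyl-CoA carboxylase Acaca (5.93 and 4.51 TPM). The related desaturase Scd1 was far lower, at 113 against 29 counts (libraries 1 and 2; log2 ratio -2.18, exact binomial adjusted p = 2.8e-15). Me1 had 0 counts in both, which allows up to 0.0171 and 0.0151 TPM. Of the 9 tested, 2 were called higher in library 2 and 3 in library 1. Erythroid markers were also higher in library 1, as given in the report, and their part in the difference of Scd1 was not tested.

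Of 5 oxysterol genes, whose products make, break down or sense oxysterols, 3 reached 1 TPM in both libraries. Cyp27a1, the sterol hydroxylase of mitochondria, stood at 18.92 and 19.83 TPM, of which 39.3% and 44.5% lay in coding transcripts. The oxysterol receptor Gpr183 stood at 7.75 and 9.42 TPM and Hsd3b7 at 6.97 and 7.52 TPM. Ch25h, another sterol hydroxylase, had 0 counts in both, which allows up to 0.0266 and 0.0236 TPM. Only Gpr183 was called, higher in library 2 (log2 ratio 0.22), among the 3 genes tested.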
